A study of Mus musculus with 7 samples.

Results

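The heart draws most of its energy from fatty acids, and 46 mouse genes of fatty acid uptake, storage and oxidation were followed here through left ventricle of telomerase-deficient mice. The genes were taken by symbol from the 22027 genes listed in the deposited tables, all 46 were found there, and 45 had enough reads to be tested. The series holds 4 libraries labelled G3, described as telomerase-deficient, and 3 labelled G3 PGC1aOE, described as G3 mice in which PGC1alpha is overexpressed. PGC1alpha, encoded by Ppargc1a, is a transcriptional coactivator that works with the PPAR and ERR nuclear receptors on genes of fuel oxidation. Strain (C57BL/6J) and age (12 months) were the same for all 7 libraries, so telomerase deficiency is common to both groups and no telomerase-proficient library was used here. The labels name neither the promoter behind the overexpression nor the cells that carry it, and nothing says which libraries share a litter.

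Fatty acids reach the cardiomyocyte from albumin or from lipoproteins cut by lipoprotein lipase, and membrane and cytosolic proteins carry them inward. They are joined to coenzyme A, passed through the mitochondrial membranes as carnitine esters under the control of malonyl-CoA, and shortened in the oxidation spiral, whose electrons leave through the electron transfer flavoprotein. Peroxisomes take part of the load, and a small droplet store is filled by acyltransferases and emptied by lipases. The PPAR family and the ERR family, helped by PGC1alpha, are known regulators of these steps in heart muscle.

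Total counts ran from 10106705 to 16056740 per library, and the fatty acid genes took between 1.27% and 2.44% of them. The message of the targeted gene showed no increase with the label. Ppargc1a measured 94.7, 56.8, 118 and 86.7 CPM (read counts scaled for library size, with TMM factors) in G3 1 to 4 and 103, 43.9 and 58.1 CPM in G3 PGC1aOE 1 to 3. Its log2 fold change, G3 PGC1aOE minus G3, was −0.38 ± 0.34 (SE) (edgeR, adjusted p = 0.847), and it was −0.81 without G3 PGC1aOE 1, −0.15 without G3 PGC1aOE 2 and −0.23 without G3 3. Directions below therefore rest on the label alone. Heart muscle markers were abundant throughout, with a mean over 10 genes of 11.8 to 12.1 log2 CPM. The libraries labelled G3 PGC1aOE 2 and 3 stood apart in read distribution, since their counts declined with gene length relative to the other libraries (Pearson r over 12674 genes, a description, of −0.34 and −0.31) while those of G3 PGC1aOE 1 and G3 3 increased with it (0.33 and 0.21). The samples' descriptions hold a code. All 3 codes of the G3 PGC1aOE libraries contain the letter C, as do those of G3 1 and G3 2, while G3 3 and G3 4 have none. A letter P stands in the codes of all 3 G3 PGC1aOE libraries and of G3 4, so that G3 3 has neither letter. The code also contains either the text G2 (G3 1, G3 PGC1aOE 1 and G3 3) or the text G3 (the other 4), and it ends in a number. The meaning of these codes is not stated.

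Promoter sequences were looked up for a nuclear receptor motif, because PPAR and ERR proteins bind copies of the hexamer AGGTCA. Windows from 250 bases before to 50 bases after the transcription start were on hand for 35 of the 46 genes (RefSeq, GRCm38.p6). The hexamer, on either strand, was in the windows of 8 of these 35 genes (22.9%), against 18.1% of 27025 genes with a window. The 8 genes were Acacb, Acadm, Acadvl, Acsl6, Cd36, Cpt1a, Echs1 and Plin5. The paired form AGGTCANAGGTCA, where N is any base, was in 0 of 35 and in 0.0481% of all genes, and the extended form TNAAGGTCA, which contains the hexamer, was in 1 of 35 (Acsl6) and in 1.43% of all. The hexamer share in these genes was thus near that of all genes, and a match of letters is not a bound site. The windows of 3 genes described below are shown so that the motif can be seen beside their values. Capitals mark the hexamer, which is in the reverse orientation in Acadm and Acacb (TGACCT) and forward in Acadvl, and each sequence runs 5′ to 3′ along the gene. They lie at chr3:153944594-153944893 on the minus strand (Acadm), chr5:114165268-114165567 on the plus strand (Acacb) and chr11:70015379-70015678 on the minus strand (Acadvl).
Acadm: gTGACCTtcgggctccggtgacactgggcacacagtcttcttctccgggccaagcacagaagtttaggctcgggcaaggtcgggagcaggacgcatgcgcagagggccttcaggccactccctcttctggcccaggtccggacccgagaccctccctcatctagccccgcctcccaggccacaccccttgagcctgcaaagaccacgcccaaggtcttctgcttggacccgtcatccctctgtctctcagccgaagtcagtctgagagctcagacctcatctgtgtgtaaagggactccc
Acacb: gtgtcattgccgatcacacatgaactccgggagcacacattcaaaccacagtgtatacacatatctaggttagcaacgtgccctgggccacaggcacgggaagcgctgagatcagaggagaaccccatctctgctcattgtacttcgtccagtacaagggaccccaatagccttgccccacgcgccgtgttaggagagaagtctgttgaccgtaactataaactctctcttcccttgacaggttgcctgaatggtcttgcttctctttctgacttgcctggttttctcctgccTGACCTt
Acadvl: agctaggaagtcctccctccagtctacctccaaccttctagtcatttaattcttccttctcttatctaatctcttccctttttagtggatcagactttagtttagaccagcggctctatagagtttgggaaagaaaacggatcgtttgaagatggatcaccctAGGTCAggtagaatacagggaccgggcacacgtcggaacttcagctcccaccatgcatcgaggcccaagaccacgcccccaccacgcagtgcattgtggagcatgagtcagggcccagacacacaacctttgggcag

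No fatty acid gene passed the test between the groups after adjustment. Of the 45 tested genes, 37 had a negative log2 fold change and 8 a positive one, against 49.1% negative among all 12674 genes tested. Their median was −0.27, against 0.0076 over all genes, and single values ran from −0.76 for Ehhadh to 0.84 for Etfb. None passed an adjusted p of 0.05 (edgeR's quasi-likelihood test, Benjamini-Hochberg over all genes, lowest adjusted p among them = 0.847), and the same was true of every other gene, with 0% of all genes called. At an unadjusted p under 0.05 stood 3 members, Ehhadh and Acacb on the lower side and Acsl5 on the higher side, where 4.32% of all genes did (1.27% lower and 3.05% higher). By other tools 0 members passed as well. DESeq2 called 3 genes in the whole table and limma voom called 0. The groups did not overlap in CPM for 2 members, Acacb and Pnpla2, both lower in the libraries labelled G3 PGC1aOE, where 2.39% of all genes were separated in that direction, 2.19% in the other and 4.58% in either. In whole ventricle, fewer cells of a type and less RNA per cell cannot be told apart, and this holds for every level given here. Fibroblast markers moved with the group (9 of 10 with a positive log2 fold change, median 0.85), with summed levels of 1397 to 2279 CPM in G3 and 1899 to 3256 CPM in the libraries labelled G3 PGC1aOE, and their part in the values of the fatty acid genes was not tested. Exons of Fabp3, Acsl1, Acsl5, Acsl6, Crat, Acadvl, Acad11, Hadha, Echs1, Etfdh, Acaa1a, Eci2 and Lipe overlap an annotated gene on the opposite strand in GENCODE, and since use of strand is unknown, reads of the pairs may be mixed. On the same strand, exons of Acsl3 (Utp14b), Acad9 (Gm43079), Acad11 (Gm28305), Cpt1b and Etfb overlap other annotated genes, so their levels are uncertain as well.

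**Figure D1:**
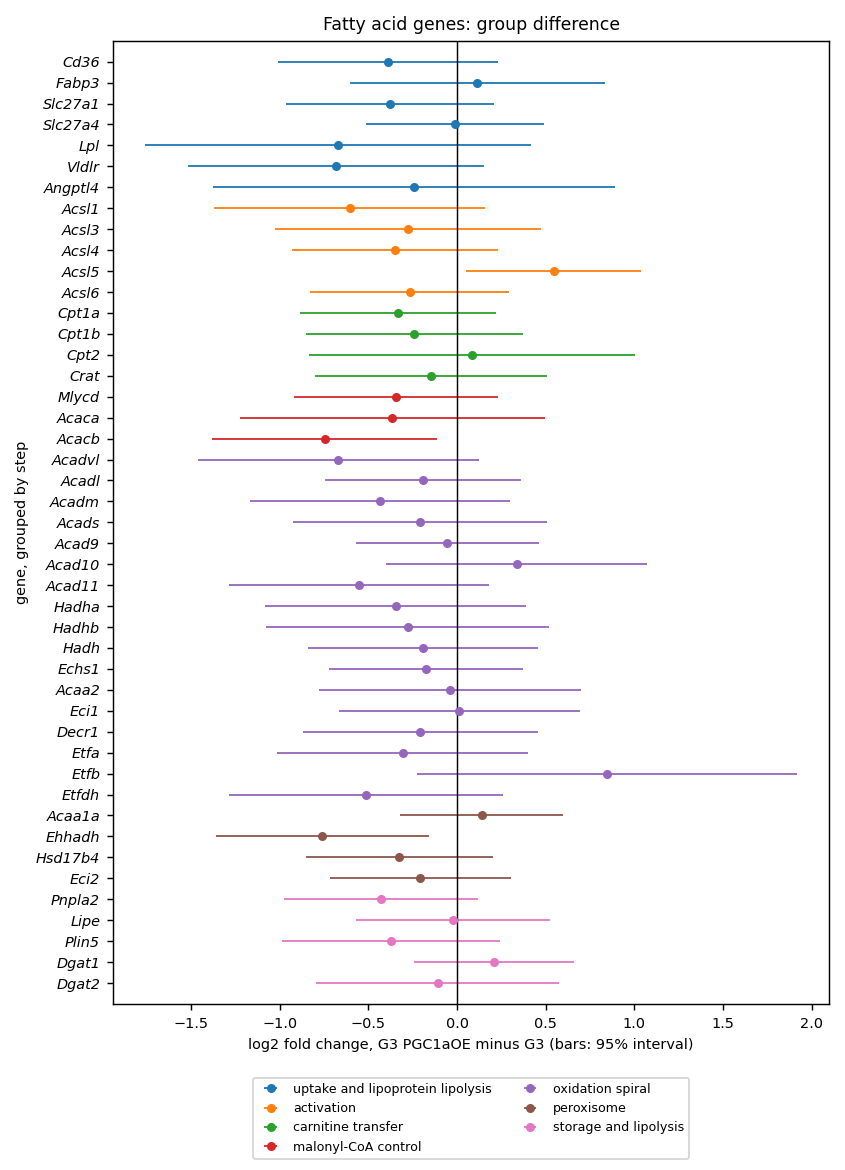
Log2 fold change of the 45 tested fatty acid genes, libraries labelled G3 PGC1aOE (n = 3) minus G3 (n = 4), with 95% intervals from the edgeR fit; colours give the step. Most points lie left of 0, and the intervals of Ehhadh, Acacb and Acsl5 alone leave out 0 before any adjustment.

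The median depended on which libraries labelled G3 were in the fit. It was −0.18 without G3 4 and −0.19 without G3 3, and between −0.33 and −0.23 without any other library. The number of negative values ran from 32 to 41 over the same fits. Without G3 PGC1aOE 1, 8 of the genes were lower and 2 higher at an unadjusted p under 0.05, beside 2464 of 12922 genes in that fit, and none was called (lowest adjusted p among them = 0.116 in edgeR). Without G3 PGC1aOE 2 or G3 PGC1aOE 3 the number at that level was 0. Over all genes it was 231 of 12853 and 343 of 12916 in those fits. Averaged over the 45 genes, G3 1 to 4 stood at 6.82, 6.85, 7.31 and 7.17 log2 CPM, and the libraries labelled G3 PGC1aOE at 6.85, 6.78 and 6.76 log2 CPM. G3 3 and G3 4 were the high libraries, and G3 1 and G3 2 lay among those labelled G3 PGC1aOE. G3 3 was the highest of all 7 libraries for 21 of the 45 genes and the lowest for 0, whereas it was highest for 16.2% and lowest for 16% of all genes tested. G3 4 was highest for 8 and lowest for 0, against 8.27% and 9.37% of all genes. G3 PGC1aOE 2 was lowest for 19 and highest for 9, but it held 27.2% of the lowest and 26.2% of the highest values over all genes.

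**Figure D2:**
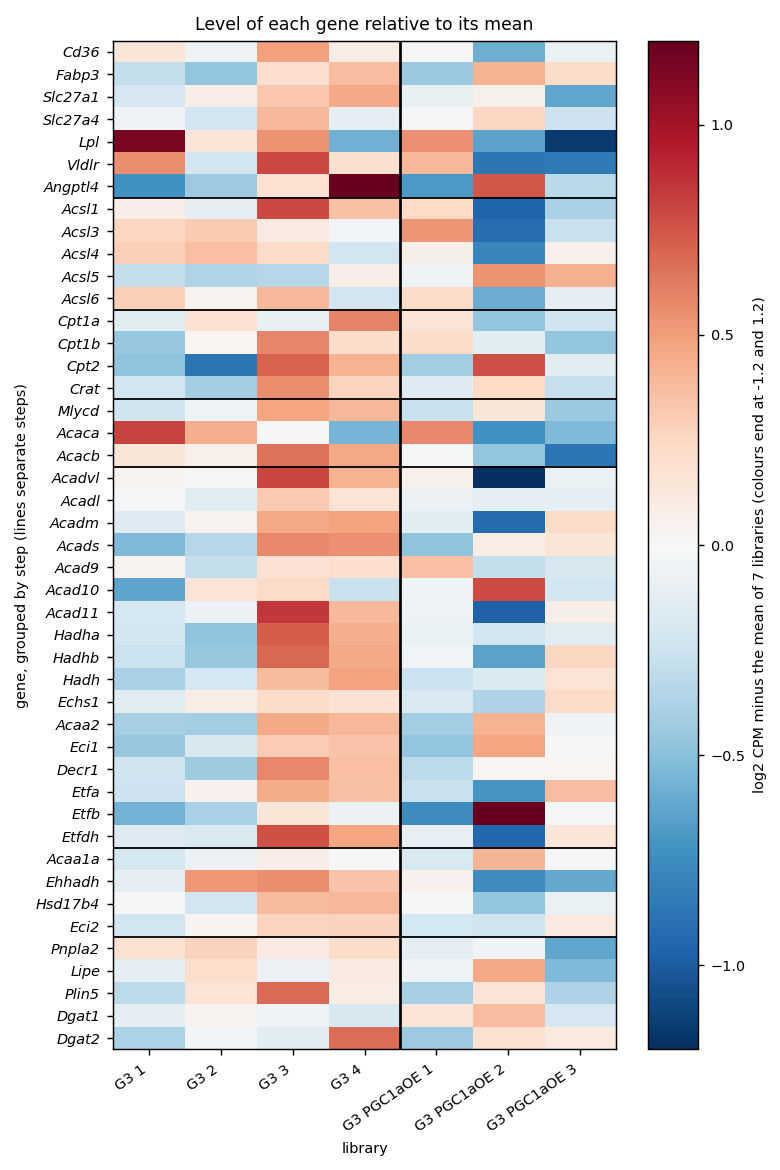
Log2 CPM of each tested fatty acid gene minus its mean over the 7 libraries, genes in rows grouped by step and libraries in columns, G3 left of the heavy line. In G3 3, 39 of 45 genes are above their mean and in G3 4, 35 of 45. G3 1 and G3 2 have 12 and 20, and G3 PGC1aOE 1 to 3 have 15, 19 and 14.

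The high pair of G3 libraries is the pair whose code lacks the letter C, a feature of the labels that was looked at only after the values were seen. Both libraries without the letter were above all 5 with it for 17 of the 45 genes, against 5.74% of all genes tested, and both were below all 5 for 0, against 7.01%. Of these 17, 10 belong to the oxidation spiral: Acadvl, Acadl, Acadm, Acads, Acad11, Hadha, Hadhb, Hadh, Decr1 and Etfdh. The other 7 were Slc27a1, Acsl1, Crat, Mlycd, Acacb, Hsd17b4 and Eci2. Because every library labelled G3 PGC1aOE carries the letter, the letter and the group partly overlap. With the letter as a second term in the edgeR fit, the median group difference of the 45 genes was −0.023, with 25 negative values, against 48.8% negative over all genes. In the 5 libraries with the letter alone the median was −0.0041, with 25 negative. No library labelled G3 PGC1aOE lacks the letter, so both fits compare the groups within the same libraries with C. The second fit is therefore no separate check of the first. The letter's own term, C minus none, had a median of −0.47 over the 45 genes and −0.0059 over all genes, with 37 negative, 6 at an unadjusted p under 0.05 on the lower side (2.15% of all genes) and 0 called (0.0631% of all genes were called). Of those 6 the 3 lowest p belonged to Acads, at −0.997 ± 0.32 (SE), Cpt2, at −1.24 ± 0.42 (SE), and Angptl4, at −1.42 ± 0.52 (SE), with adjusted p of 0.5, 0.511 and 0.592 in edgeR. Since the values of these same genes drew attention to the letter, its p-values for them describe the split and do not test it. The letter's term rests on the G3 libraries alone. The smaller group difference with the letter in the fit follows in part from that choice, because it sets the high pair aside. Whether the letter or the group lies behind the difference was not tested.

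Summed markers of several other cell types were split by the letter as well, and those of heart muscle, endothelium and skeletal muscle were not. Summed macrophage markers (10 of 10 detected) stood at 345 and 313 CPM in G3 3 and G3 4 and at 577 to 715 CPM in the 5 libraries with C, and summed heart muscle markers at 64335 and 65259 CPM against 51970 to 78172 CPM. Sums in G3 3 and G3 4 against those in the 5 with C were 1553 and 1397 against 1586 to 3256 CPM for fibroblast, 25.8 and 34.4 against 36.7 to 87.8 CPM for adipocyte and 1.52 and 2.18 against 3.74 to 38.3 CPM for liver markers. The fibroblast gap was narrow, between 1553 and 1586 CPM, as was the adipocyte gap, between 34.4 and 36.7 CPM. Liver markers were near the floor, with Alb at 0 and 5 counts in G3 3 and G3 4. Not every marker was split. Apoa2 was lowest in G3 PGC1aOE 1, at 0.543 CPM. Cidea, which made up much of the adipocyte sums, measured 23.9 and 32.8 CPM in G3 3 and G3 4 and 26.9 CPM in G3 PGC1aOE 1. Col3a1 measured 62.7, 41.7, 68.4 and 69.4 CPM in G3 1 to 4 and Lum 29.2, 28.7, 35.8 and 36.5 CPM. Endothelial sums were 846 and 1063 against 829 to 1602 CPM, and skeletal muscle sums 1215 and 1147 against 833 to 1412 CPM. The part of these cell types in the difference was not tested. By the number in the code, the mean of the 45 genes differed by −0.14 below 80 (3 G3 libraries and 1 labelled G3 PGC1aOE) and by −0.40 at 80 and above (1 and 2), beside −0.24 over all.

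**Figure D3:**
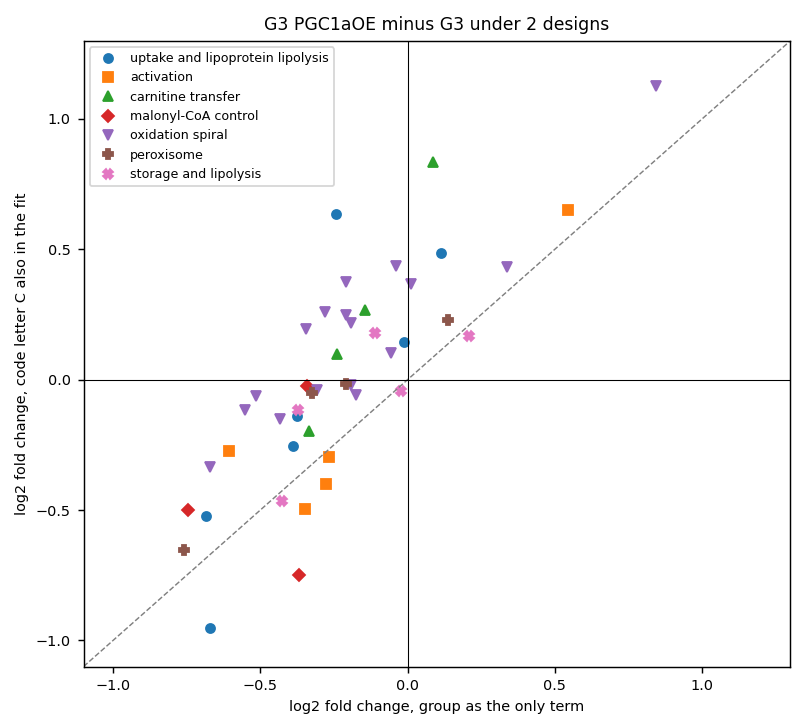
Log2 fold change, G3 PGC1aOE minus G3, of the 45 tested fatty acid genes with group as the only term (horizontal axis) and with the code letter C added to the fit (vertical axis); the dashed line marks equal values and symbols give the step. All 17 oxidation spiral genes lie above the dashed line, with a median of −0.21 on the horizontal axis and 0.20 on the vertical axis.

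The steps of the pathway differed in size and in the libraries behind them. The median log2 fold change was −0.38 for 7 tested genes of uptake and lipoprotein lipolysis, −0.28 for 5 of activation, −0.19 for 4 of carnitine transfer, −0.37 for 3 of malonyl-CoA control, −0.21 for 17 of the oxidation spiral, −0.27 for 4 of the peroxisome and −0.11 for 5 of storage and lipolysis. Negative values numbered 6 of 7, 4 of 5, 3 of 4, 3 of 3, 14 of 17, 3 of 4 and 4 of 5, beside the 49.1% of all genes. Single libraries moved several of these medians. The activation median was −0.077 without G3 PGC1aOE 2, the carnitine median −0.022 without G3 3, the malonyl-CoA median −0.90 without G3 PGC1aOE 1, the spiral median −0.10 without G3 3, and the storage median 0.001 without G3 4 and 0.0056 without G3 PGC1aOE 1. The library pattern differed by step. In the spiral, G3 3 and G3 4 were 0.48 and 0.31 above the mean of the 7 libraries and G3 1 and G3 2 were at −0.27 and −0.19, close to −0.19, −0.19 and 0.046 in G3 PGC1aOE 1 to 3. In malonyl-CoA control, G3 1 to 4 were at 0.24, 0.15, 0.37 and 0.098 and G3 PGC1aOE 1 to 3 at 0.11, −0.35 and −0.61, so that the low values were in G3 PGC1aOE 2 and 3. These differences between steps were not tested.

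**Figure D4:**
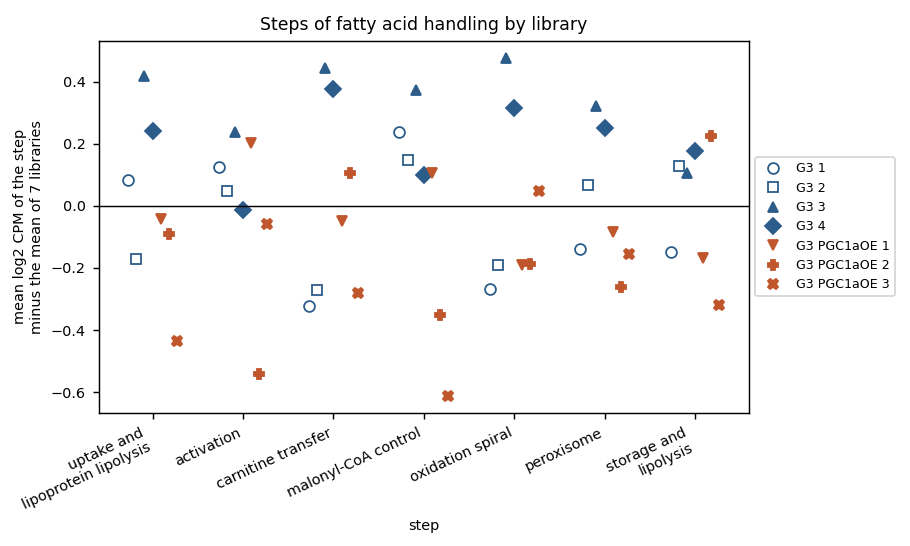
Mean log2 CPM of the tested genes of each step in every library, minus the mean over the 7 libraries; blue symbols are G3 libraries, open for G3 1 and G3 2 and filled for G3 3 and G3 4, and orange symbols are those labelled G3 PGC1aOE. In the oxidation spiral G3 3 and G3 4 stand alone at the top, and in malonyl-CoA control the lowest 2 values are G3 PGC1aOE 2 and 3.

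Uptake rested on a few very abundant messages. Lpl, which encodes lipoprotein lipase, had the highest level per length of all 46 genes at 2280 FPKM (the deposited values scaled for library size and gene length, mean of 7 libraries), followed in this step by Fabp3, the heart fatty acid binding protein, at 1725 FPKM and Cd36, the fatty acid translocase, at 495 FPKM. Lpl (ENSMUSG00000015568) measured 9769, 4944, 6505 and 2990 CPM in G3 1 to 4 and 6531, 2857 and 2013 CPM in G3 PGC1aOE 1 to 3. The groups overlapped. The 3 libraries whose code reads G2 were the highest, and the 4 that read G3 were the lowest. On the log2 scale the difference was −0.67 ± 0.49 (SE) (edgeR, adjusted p = 0.847), −0.34 without G3 1, −1.32 without G3 PGC1aOE 1, −0.37 without G3 PGC1aOE 3 and −0.55 with the code text in the fit.

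Vldlr, the very low density lipoprotein receptor, was also highest in the 3 libraries coded G2. It measured 293, 170, 344 and 228 CPM in G3 1 to 4 and 264, 109 and 111 CPM in G3 PGC1aOE 1 to 3. The log2 fold change was −0.68 ± 0.38 (SE) (edgeR, adjusted p = 0.847), −1.24 without G3 PGC1aOE 1 and −0.62 with the code text in the fit. Slc27a1, a fatty acid transport protein of muscle, measured 146, 177, 209 and 229 CPM against 157, 174 and 108 CPM, with the groups overlapping and a log2 difference of −0.38 ± 0.27 (SE), or −0.20 without G3 PGC1aOE 3. Cd36 was at −0.39 ± 0.28 (SE), or −0.23 without G3 PGC1aOE 2. Angptl4, a secreted inhibitor of lipoprotein lipase, was low, between 4.10 and 16.6 CPM, at −0.24, and 0.33 without G3 4. Fabp3 and Slc27a4, another transport protein, were among the 9 genes closest to 0. Among the transport proteins Slc27a1 took between 85.4% and 91.8% of the summed FPKM of Slc27a1, Slc27a4 and Slc27a6 in each library. Slc27a6 had between 0 and 5 counts and was not tested.

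Activation to acyl-CoA was carried at the message level by Acsl1, the main long-chain acyl-CoA synthetase of heart, which made up 88.6% to 95.3% of the summed FPKM of the 5 Acsl genes. Acsl1 measured 490, 425, 802 and 590 CPM in G3 1 to 4 and 545, 238 and 353 CPM in G3 PGC1aOE 1 to 3. G3 3 was highest, G3 PGC1aOE 2 was lowest, and the groups overlapped. The log2 fold change was −0.61 ± 0.35 (SE) (edgeR, adjusted p = 0.847), −0.97 without G3 PGC1aOE 1 and −0.36 without G3 PGC1aOE 2. Acsl5, a minor synthetase, went the other way. It measured 12.7, 12.0, 12.2 and 16.3 CPM against 14.9, 22.5 and 20.8 CPM, and only G3 4 and G3 PGC1aOE 1 broke the separation. The fitted log2 difference was 0.54 ± 0.22 (SE) (edgeR, unadjusted p = 0.0332, adjusted p = 0.847). By the share of the family's FPKM, Acsl5 held 0.984% to 1.78% in the G3 libraries and 1.73%, 5.69% and 3.61% in G3 PGC1aOE 1 to 3. Acsl3, Acsl4 and Acsl6, 3 further synthetases, were at −0.28, −0.35 and −0.27, and without G3 PGC1aOE 2 they were at 0.014, −0.11 and −0.077. Acsl3 and Acsl6 were at −0.75 and −0.49 without G3 PGC1aOE 1.

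In carnitine transfer the most abundant message per length was Crat, carnitine acetyltransferase, which exports short acyl groups. Crat measured 246, 217, 423 and 345 CPM in G3 1 to 4 and 258, 338 and 238 CPM in G3 PGC1aOE 1 to 3, with G3 3 and G3 4 highest and G3 PGC1aOE 2 just under G3 4. The log2 fold change was −0.15 ± 0.30 (SE) (edgeR, adjusted p = 0.923) and 0.029 without G3 3. Cpt1a, the liver-type form of the transferase that malonyl-CoA inhibits, measured 44.4, 54.7, 45.7 and 73.2 CPM against 53.8, 34.9 and 40.9 CPM, with a log2 fold change of −0.33 ± 0.25 (SE), or −0.16 without G3 4. Leaving out G3 PGC1aOE 2 gave −0.20 and leaving out G3 PGC1aOE 1 gave −0.53. The muscle form Cpt1b measured 12.4, 17.4, 25.7 and 19.9 CPM against 20.0, 15.7 and 12.3 CPM, with overlapping groups and a log2 difference of −0.24 ± 0.28 (SE), or −0.072 without G3 3. Leaving out G3 PGC1aOE 3 gave −0.086 and leaving out G3 PGC1aOE 1 gave −0.44. Per length Cpt1b made up between 49.9% (G3 4) and 67.3% (G3 3) of the summed FPKM of the pair. Cpt1b shares exons with another annotated gene on the same strand (Gm44502), and how reads over both were counted is not given in the sources used here, so its level is uncertain. Cpt2, the inner membrane transferase, averaged 121 FPKM and was among the 9 genes closest to 0.

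Malonyl-CoA, the inhibitor of the entry step, is made by Acacb at the mitochondrial surface and by Acaca in the cytosol and is removed by Mlycd. Acacb measured 255, 241, 364 and 318 CPM in G3 1 to 4 and 233, 166 and 127 CPM in G3 PGC1aOE 1 to 3. Every library labelled G3 PGC1aOE was below every G3 library, by a narrow gap between 241 and 233 CPM. Its log2 fold change was −0.75 ± 0.29 (SE) and an interval from −1.38 to −0.11 (edgeR, unadjusted p = 0.0253, adjusted p = 0.847), and −0.50 ± 0.33 (SE) with the code letter C in the fit. Mlycd, which acts in the opposite sense, measured 84.6, 96.1, 139 and 132 CPM against 82.8, 110 and 73.6 CPM, with overlapping groups and a log2 difference of −0.34 ± 0.26 (SE). It was −0.53 without G3 PGC1aOE 2 and −0.23 without G3 PGC1aOE 3. Acaca was at −0.37 ± 0.39 (SE), and between −0.90 and −0.12 when single libraries were left out. Acacb made up 87.9% to 95.9% of the summed FPKM of the 2 carboxylases.

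Several messages of the oxidation spiral were abundant per length. Acadm, the medium-chain acyl-CoA dehydrogenase, averaged 1203 FPKM, and Hadhb and Hadha, the subunits of the trifunctional protein, averaged 766 and 690 FPKM. Acadm measured 824, 941, 1252 and 1281 CPM in G3 1 to 4 and 838, 481 and 1068 CPM in G3 PGC1aOE 1 to 3, with G3 3 and G3 4 above the rest and G3 PGC1aOE 2 far below. The log2 fold change was −0.43 ± 0.33 (SE) (edgeR, adjusted p = 0.847), −0.17 without G3 PGC1aOE 2 and −0.71 without G3 PGC1aOE 3. Acadvl, which starts the spiral on very long chains, measured 341, 337, 584 and 448 CPM against 349, 140 and 317 CPM. Again the highest were G3 3 and G3 4 and the lowest was G3 PGC1aOE 2. The difference was −0.67 ± 0.36 (SE) on the log2 scale (edgeR, adjusted p = 0.847), and −0.36 without G3 PGC1aOE 2. Of the other dehydrogenases, Acadl, for long chains, was at −0.19, or −0.13 without G3 3, and Acad11, for very long chains, at −0.55, or −0.29 without G3 PGC1aOE 2 and −0.32 without G3 3. Acads, for short chains, was at −0.21, and single libraries left out moved it from −0.38 (without G3 1) to −0.040 (without G3 PGC1aOE 1), with −0.045 without G3 3 or G3 4. Acad10, whose role in heart is less known, had 3.28 to 9.03 CPM and was at 0.34, or −0.051 without G3 PGC1aOE 2. Acad9, which also helps assemble respiratory complex I, was among the 9 closest to 0.

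Hadha, which carries the hydratase and dehydrogenase activities of the trifunctional protein, measured 902, 755, 1744 and 1425 CPM in G3 1 to 4 and 998, 898 and 952 CPM in G3 PGC1aOE 1 to 3, and its log2 fold change was −0.35 ± 0.33 (SE), or 0.20 ± 0.33 (SE) with the code letter C in the fit. Both G3 3 and G3 4 were above every other library, which lay between 755 and 998 CPM. With single libraries left out, the Hadha value had a range of −0.51 to −0.13. Hadhb was at −0.28 (range −0.49 to −0.068), Hadh, the short-chain hydroxyacyl-CoA dehydrogenase, at −0.19 (−0.33 to −0.042), Echs1, the short-chain hydratase, at −0.17 (−0.36 to −0.050), and Decr1, the reductase for unsaturated chains, at −0.21 (−0.35 to −0.034). The values nearest 0 came without G3 PGC1aOE 2 for Hadhb and Echs1, without G3 4 for Hadh and without G3 3 for Decr1. The order of libraries was not common to all: Echs1 was highest in G3 PGC1aOE 3. Eci1, an isomerase for unsaturated chains, and Acaa2, the mitochondrial thiolase, were among the 9 closest to 0.

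Messages of enzymes built from paired subunits kept a fixed ratio in most libraries but not in all. Etfa, the alpha subunit of the electron transfer flavoprotein, made up 79.7% to 81.2% of the summed FPKM of Etfa and Etfb across the G3 libraries and 81.7%, 38.4% and 80.8% in G3 PGC1aOE 1 to 3. One library, G3 PGC1aOE 2, thus stood far from the other 6, which lay within 79.7% to 81.7%. Etfb, the beta subunit, measured 82.3, 93.1, 134 and 116 CPM in G3 1 to 4 and 72.0, 382 and 119 CPM in G3 PGC1aOE 1 to 3. Its log2 fold change of 0.84 ± 0.48 (SE), the largest positive value of the 45, rested on that library and was −0.15 without it. Etfb had the shortest length of the 46 genes in the deposited tables, 564 bp, against 821 bp for Etfa and a median of 1955 bp over tested genes, and its exons overlap 2 other annotated genes on the same strand (Gm45233 and Mir7051). G3 PGC1aOE 2 was the library whose counts declined most with gene length, and with the length trend removed from all 7 libraries the Etfb value was 0.20. Hadha made up 46.8% to 48.2% of the summed FPKM of the trifunctional pair in the 4 G3 libraries and G3 PGC1aOE 1, but 54.7% and 40.7% in G3 PGC1aOE 2 and 3, on opposite sides. Etfa itself was at −0.31, or −0.088 without G3 PGC1aOE 2 and −0.65 without G3 PGC1aOE 3, and Etfdh, which passes the electrons on to ubiquinone, was at −0.51, or −0.26 without G3 PGC1aOE 2 and −0.32 without G3 3.

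**Figure D5:**
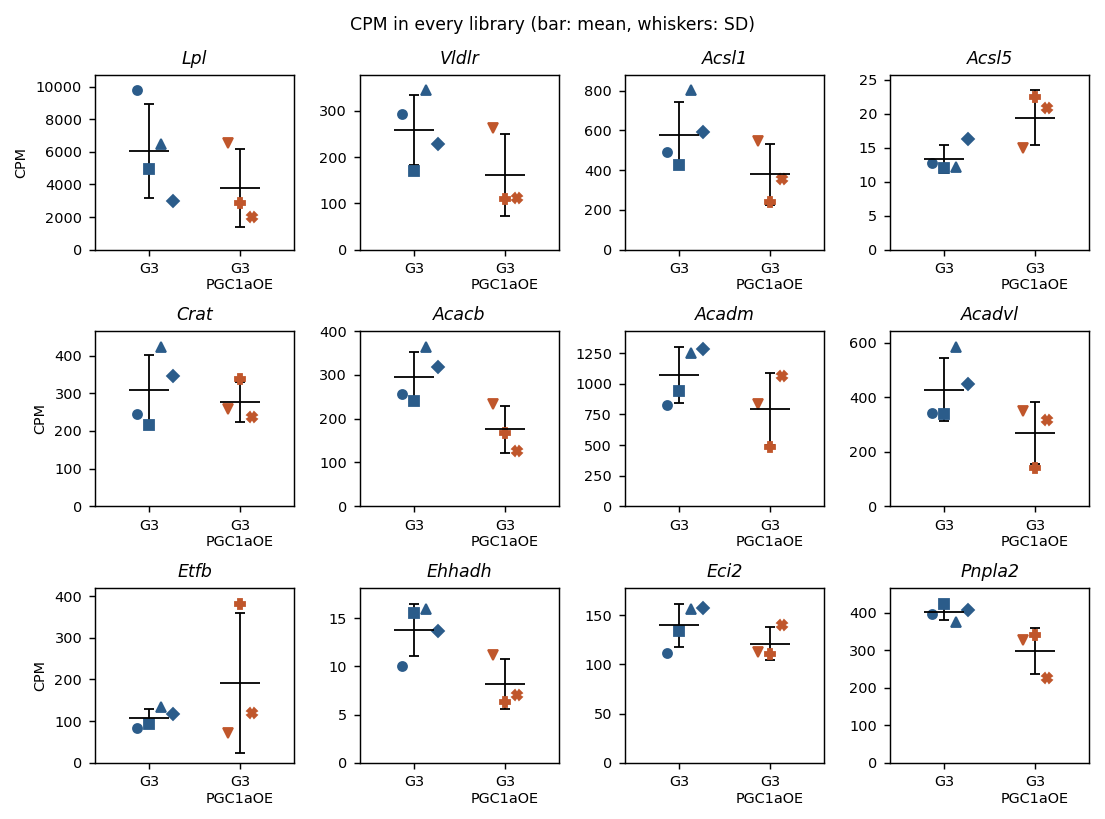
CPM of 12 fatty acid genes in every library, with the mean (bar) and SD (whiskers) of each group; in blue, circle, square, triangle and diamond are G3 1 to 4, and in orange, downward triangle, plus and cross are G3 PGC1aOE 1 to 3. The panels of Acacb and Pnpla2 show no overlap between groups, and the Etfb panel shows the single value of 382 CPM.

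Among the peroxisomal genes Eci2, an isomerase found in peroxisomes and mitochondria, was the most abundant at 135 FPKM. It measured 111, 134, 157 and 158 CPM in G3 1 to 4 and 112, 110 and 140 CPM in G3 PGC1aOE 1 to 3, with overlapping groups and a log2 difference of −0.21 ± 0.23 (SE). Ehhadh, the peroxisomal bifunctional enzyme and a known PPARalpha target, had the lowest unadjusted p of the 45 genes. It measured 10.0, 15.6, 16.0 and 13.7 CPM against 11.2, 6.33 and 6.99 CPM. The groups overlapped only through G3 1, which lay below G3 PGC1aOE 1. Its log2 fold change was −0.76 ± 0.27 (SE) and an interval from −1.36 to −0.16 (edgeR, unadjusted p = 0.0178, adjusted p = 0.847), and −0.65 ± 0.33 (SE) with the code letter C in the fit. Hsd17b4, the second peroxisomal bifunctional enzyme, measured 67.7, 58.1, 88.9 and 89.5 CPM against 68.3, 49.4 and 64.3 CPM, at −0.33 ± 0.24 (SE), or −0.20 without G3 PGC1aOE 2. Acaa1a, a peroxisomal thiolase, was among the 9 closest to 0.

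In storage and lipolysis Pnpla2, which encodes the lipase that opens triglyceride breakdown, had a tight range within G3. It measured 397, 424, 374 and 407 CPM in G3 1 to 4 and 326, 340 and 227 CPM in G3 PGC1aOE 1 to 3, so that all 3 libraries of the latter group were lower. The log2 fold change was −0.43 ± 0.25 (SE) (edgeR, unadjusted p = 0.113, adjusted p = 0.847), −0.27 without G3 PGC1aOE 3, and −0.46 ± 0.31 (SE) with the code letter C in the fit. Unlike the spiral genes other than Acad10, Pnpla2 was not higher in both G3 3 and G3 4 than in G3 1 and G3 2. Nor were the other genes of this step. Over all steps 28 of the 45 genes were, against 20.7% of all genes tested. Plin5, the droplet coat protein of oxidative muscle, measured 80.8, 111, 160 and 106 CPM against 76.2, 112 and 77.7 CPM, with overlapping groups and a log2 difference of −0.37 ± 0.28 (SE), or −0.19 without G3 3 and −0.58 without G3 PGC1aOE 2. Dgat1, one of the enzymes that complete triglyceride synthesis, was at 0.21, or 0.067 without G3 PGC1aOE 2, 0.35 without G3 PGC1aOE 3 and 0.012 with the length trend removed. The other, Dgat2, and Lipe, the hormone-sensitive lipase, were among the 9 closest to 0. Dgat2 held 80.4% to 91.8% of the summed FPKM of the pair. Lipe, Lpl, Dgat2 and Pnpla2 are also expressed by fat cells, so fat cell markers were read beside them. The summed adipocyte markers (8 of 10 tested, Ucp1 at 0 counts in every library and Lep at 0 in all G3 libraries) stood at 37.5, 62.5, 25.8 and 34.4 CPM in G3 1 to 4 and 36.7, 67.3 and 87.8 CPM in G3 PGC1aOE 1 to 3. Cidea made up much of these sums (23.9 to 34.6 CPM in G3 and 26.9 to 35.6 CPM in the other group, log2 fold change 0.044), while all 8 tested markers had a positive log2 fold change with a median of 1.81. Adipoq stayed between 0.0752 and 4.05 CPM. The part of fat cells in these levels was not tested.

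Beyond the 46 genes, 69 further genes of the pathway were read from the same fit in 5 lists, and 0 of the 67 tested passed. Negative values numbered 48 of 67, beside 49.1% of all genes tested, whose median was 0.0076. Of 17 regulators, 16 were negative with a median of −0.33. The related coactivator gene Ppargc1b was at −0.98, or −0.62 without G3 4, and the receptor gene Ppara at −1.17, or −0.70 without G3 PGC1aOE 2. Among 11 tested genes of transport and vascular handling 5 were negative, with a median of 0.31. Here Fabp5 and Fabp4, binding proteins abundant in endothelium, fat and macrophages, were at 1.18 and 0.66, and Fabp4 was at 0.23 without G3 PGC1aOE 2. Summed endothelial markers (10 of 10 tested) stood at 829 to 1063 CPM in G3 and 851 to 1602 CPM in the other group, with the highest in G3 PGC1aOE 2, and their part in the Fabp values was not tested.

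Of 13 tested peroxisomal partners 8 were negative, with a median of −0.024. Pex11a, a peroxisome division gene, was at −0.43 (adjusted p = 0.847 in edgeR), or −0.27 without G3 3. Of 14 droplet and esterification genes 10 were negative, with a median of −0.11. Fitm2, needed for droplet formation, was at −0.51, or −0.27 without G3 3, and Cidec, a droplet protein of fat cells and also one of the adipocyte markers, at 2.00 from values between 0 and 6.48 CPM, or 1.17 without G3 PGC1aOE 3 and 4.82 without G3 2. Of 12 other mitochondrial genes 9 were negative, with a median of −0.46. Among these Nnt, the proton-driven transhydrogenase, was at −1.04, or −0.74 without G3 PGC1aOE 2 and −1.40 without G3 PGC1aOE 1. Pdk4, the kinase that spares pyruvate, was at −1.09. Pdk4 measured 589 and 592 CPM in G3 3 and G3 4 and 146 to 280 CPM in the 5 libraries with code letter C, and it was at −0.42 with the letter in the fit and −0.40 in those 5 alone.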

How the data were processed

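RNA from left ventricle was made into TruSeq libraries, per the labels' protocols, and samples were grouped by genotype label. The authors deposited read counts per gene, without normalization, and FPKM, which equalled the counts over the column total and 1 length per gene (largest length range 0.00228 bp over 13905 genes). Bowtie 0.12.2, CASAVA and the mm9 build are listed per the submitters' processing notes. The program that counted reads, its gene models and its handling of strand are not given here, so overlapping genes are uncertain. With edgeR 4.0.16 in R 4.3.3, filterByExpr left 12674 genes and TMM factors scaled their counts. Groups were compared by the robust quasi-likelihood F-test with a single term for group, and p-values were adjusted by Benjamini-Hochberg, called at 0.05. CPM use TMM-scaled totals, and log2 CPM a prior count of 2. Intervals are at 95%. Nothing says that libraries come from separate animals, so p-values cover only the spread among these samples, which may be technical. Gene names matched 21748 of 22027 identifiers. The alternatives used upper quartile or RLE scaling, other filters, DESeq2 1.42.0, limma 3.58.1, covariates, a replicate block and libraries left out. Those for code letter C and gene length were chosen after seeing the data. Counts were simulated for this comparison over 12674 genes, of which 200 were changed. There edgeR recovered 20% of genes changed 2-fold and 94% of those changed 4-fold, with 5 false calls. Each gene was drawn independently, so shifts shared by many genes of a library were not simulated. The genes, lists and naming rule were chosen with earlier results of these data known: in each step the most abundant gene per length and the 2 of smallest p are given per library, and in each further list the 2 of smallest p, of which 1 gene is not reported here. Other genes named were chosen after their values were seen.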

Additional observations from a re-analysis of the deposited data

Results flagged for a closer look

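A test for a single library far from the others was applied to 75 values of the 4 G3 libraries (CPM of each gene, step means and isoform shares). Chance flags about 1 in 20 such values, and 1 was marked. Acsl5 stood at 16.3 CPM in G3 4, against 12.0 to 12.7 CPM in the other 3 libraries of its group. Groups of 3 libraries were not tested in this way, so the Etfb value of G3 PGC1aOE 2 falls outside it.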

How the results depend on the processing

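Between the groups, 0 of the fatty acid genes were called under all 23 alternatives. The number of genes called in the whole table was 0 except for 3 with DESeq2 and 6 with the replicate block. Whether the replicate numbers pair the libraries could not be told from the values. With group means removed, the correlations of same-numbered libraries were 0.46, 0.12 and −0.086. The first was the highest between any G3 and any G3 PGC1aOE library, but not every library correlated best with its own number. With the block, 33 of 45 genes were negative with a median of −0.16, Angptl4 was 0.25 and Acads 0.012. Leaving out 1 library each gave 0 genes called, 0 of the fatty acid genes called, 32 to 41 negative, and a median of −0.33 to −0.18. The step medians ran from −0.47 to −0.20 for uptake, −0.49 to −0.077 for activation, −0.32 to −0.022 for carnitine transfer, −0.90 to −0.23 for malonyl-CoA control, −0.34 to −0.10 for the spiral, −0.35 to −0.17 for the peroxisome and −0.31 to 0.0056 for storage. Over the same fits Crat ran from −0.31 to 0.029, Angptl4 from −0.80 to 0.33, Acsl3 from −0.75 to 0.014, Acad10 from −0.051 to 0.52 and Etfb from −0.15 to 1.23. Without G3 PGC1aOE 2 and with the length trend removed, Acsl3 was 0.0081, Acad10 −0.035 and Etfb −0.40, and with the trend removed from all 7 libraries Etfb was 0.20. Adding the code number to the fit, as a split at 80, put Acaca at 0.038.

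With the letter as a covariate, and in the libraries with the letter alone, the median was −0.023 and −0.0041 over all fatty acid genes, 0.18 and 0.20 for carnitine transfer, 0.20 and 0.21 for the spiral and −0.034 and −0.018 for the peroxisome. The other medians stayed negative. They were −0.14 and −0.12 for uptake, −0.30 and −0.28 for activation, −0.50 and −0.48 for malonyl-CoA control and −0.044 and −0.024 for storage. The 2 settings rest on the same contrast. Under the same 2 settings Angptl4 was 0.63 and 0.66, Cpt1b 0.099 and 0.12, Crat 0.27 and 0.28, Acads 0.37 and 0.39, Hadha 0.20 and 0.21, Hadhb 0.26 and 0.27, Hadh 0.22 and 0.24, Decr1 0.25 and 0.27, and Pex11a 0.054 and 0.070. Other genes moved further below 0, among them Lpl at −0.95 and −0.94 and Acaca at −0.75 and −0.73. Acsl4 was at −0.49 and −0.48, and Acsl3 at −0.40 and −0.38. The cause was not tested. The 9 genes closest to 0 changed sign in 59 of 207 values and are given no direction. On log2(FPKM + 0.1), with no TMM scaling, the median of all genes was −0.11 and that of the fatty acid genes −0.36. With 4 and 3 libraries and a biological coefficient of variation of 31.2%, 2-fold changes were mostly missed in simulated counts.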
